A study of Mus musculus with 67 samples.

Results

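The comparison set extra-embryonic ectoderm (ExE) at embryonic day 5.5 in vitro (E5.5) against ExE at E4.75, in wild-type mouse embryos. It used 6 of the 67 RNA-seq libraries of the series, which the labels put in these groups: 3 of ExE E5.5 in vitro and 3 of ExE E4.75. All 15567 genes that reached at least 1 TPM in at least 3 of the 67 libraries were tested, out of 25006 in the deposited table. TPM, which sums to about the same total in each library, is a transcript's share of the RNA corrected for its length, so levels can be compared between genes. Other libraries of the series were set beside these: ExE E5.5 in vivo (2 libraries), the tissue labelled TGC at E5.5 in vitro (4) and E4.75 (3), and the epiblast (Epi) at E5.5 in vitro (3) and E4.75 (3). TGC is read here as trophoblast giant cells, which the libraries bear out with Prl3d1, a giant cell placental lactogen, at 109216 ± 6850.5 TPM (SD, n = 4) at E5.5 in vitro and 20926 ± 2031 TPM (n = 3) at E4.75. The series used a mouse line with an EGFP reporter under the Pdgfra promoter, per its design text, and no further allele or treatment is given for any of these groups.

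In vitro means embryos grown in a 3-dimensional culture in Matrigel, from which the tissue was taken, and in vivo means embryos dissected from the decidua. Each library was amplified through 17 cycles from about 10 to 100 cells. The labels do not state whether the E4.75 embryos had been cultured, so between the first 2 groups age and culture cannot be told apart. They give 3 biological replicates per group without saying which embryos each came from, so p-values rest on library-to-library spread that may be technical. Group levels below are means ± SD of TPM, with n = 3 for ExE E5.5 in vitro and ExE E4.75, and n = 2 for ExE E5.5 in vivo. Differences are in log2(TPM + 1), E5.5 in vitro minus E4.75 unless stated, ± SE from limma, and the added 1 TPM makes changes of low genes look smaller than they are. A gene is said to have risen or fallen where its adjusted p was under 0.05 and its log2 difference at least 1 in size.

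The extra-embryonic ectoderm is the trophoblast that stays next to the epiblast after implantation and grows towards the ectoplacental cone. It descends from the polar trophectoderm of the blastocyst, keeps the trophoblast stem cells under FGF4 from the epiblast, and sends BMP4 and convertases of the NODAL precursor back to the epiblast. Trophoblast that loses this contact leaves the cell cycle of dividing cells and forms polyploid giant cells, which secrete placental lactogens.

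Of all genes tested, 3396 (21.8%) passed the test between ExE E5.5 in vitro and ExE E4.75, 2311 (14.8%) higher in vitro and 1085 (6.97%) lower. Libraries of these groups did not overlap for 8382 of the 15567 genes tested, so lack of overlap, given for single genes below, was common among all genes. The median gene differed by 0.17 on the log2 scale, and the share of calls in the higher direction, 68.1%, was 48.5% after quantile normalization and also after scaling by median ratios, 58.7% with a pseudocount of 0.1 TPM and 52.3% with the trend by transcript length removed. Libraries of ExE E5.5 in vitro held 10933 to 11160 genes at 1 TPM or more, and those of ExE E4.75 held 10609 to 10645. Correlations of log2(TPM + 1) across genes were 0.966 to 0.967 between libraries of ExE E5.5 in vitro, 0.993 to 0.994 between those of ExE E4.75, and 0.904 to 0.913 across the groups. Longer transcripts were called higher more often, as described at the end. Sex-linked genes, looked at after their values were seen, also separated the groups. The Y-linked Ddx3y was at 24.7 to 29.4 TPM in the libraries of ExE E5.5 in vitro and at 0 in all 3 of ExE E4.75, whereas Xist, the RNA that coats the inactive X chromosome, was at 2.42 to 3.00 TPM and 15.5 to 25.4 TPM. Of 618 X-linked genes tested, 14.7% were higher and 9.06% lower, against 14.9% and 6.88% of 14856 autosomal genes. The part of embryo sex in the results was not tested.

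The markers of ExE were present at both ages, and Bmp4 rose while Eomes and Elf5 did not pass the test. Bmp4 (chr14:46383520-46390669 on GRCm38, the assembly that mm10 names), the BMP ligand that ExE sends to the epiblast, was at 299, 319.8 and 338 TPM in ExE E5.5 in vitro, at 316 and 245 TPM in ExE E5.5 in vivo and at 65.9, 65.3 and 72.4 TPM in ExE E4.75. Every E5.5 library lay above every E4.75 library, and the log2 difference of the in vitro libraries was 2.22 ± 0.61 (adjusted p = 0.0037). With a pseudocount of 0.1 TPM the difference was 2.23 and no longer passed (adjusted p = 0.138).

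Eomes (chr9:118478212-118486132), a T-box factor needed for trophoblast stem cells, was at 113, 127 and 108 TPM in ExE E5.5 in vitro, 133 and 118 TPM in ExE E5.5 in vivo and 108, 99.98 and 92.3 TPM in ExE E4.75. The lowest in vitro library lay just under the highest of E4.75, and the difference of 0.21 ± 0.24 did not pass (adjusted p = 0.594). Elf5 (chr2:103411688-103450989), an ETS factor that keeps the trophoblast stem cell state, was at 151, 135 and 156 TPM in vitro, 42.8 and 44.1 TPM in vivo and 211, 186 and 198 TPM at E4.75. All 3 cultured libraries lay below those of E4.75, by -0.43 ± 0.24 on the log2 scale (adjusted p = 0.194), and the in vivo libraries lay lower still, by -2.16 ± 0.27 from E4.75 (adjusted p = 3.97e-09). In ExE the label thus held for all 3 markers in each group, with Elf5 lowest in vivo.

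Of 14 factors of ExE and trophoblast stem cells, 7 rose and 0 fell, with a median log2 difference of 1.27 beside 0.17 over all genes. Lin28a, an RNA-binding protein that blocks let-7 maturation, was at 65.3, 61.2 and 58.7 TPM in ExE E5.5 in vitro, 34.3 and 39.3 TPM in vivo and 4.25, 3.58 and 3.27 TPM at E4.75, a log2 difference of 3.74 ± 0.36 in vitro (adjusted p = 1.9e-12). Esrrb, a nuclear receptor of stem cells of the trophoblast and epiblast, was at 21.5, 19.3 and 16.9 TPM in vitro, 19.06 and 23.7 TPM in vivo and 1.48, 1.47 and 1.91 TPM at E4.75, a log2 difference of 2.95 ± 0.27 (adjusted p = 5.14e-13). Neither gene overlapped between the ages.

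Gata3, a zinc finger factor of the trophoblast, was at 653, 544 and 575 TPM in ExE E5.5 in vitro and 166, 135 and 142 TPM in ExE E4.75, with 816 and 705 TPM in vivo. The groups did not overlap and the log2 difference was 2.00 ± 0.71 (adjusted p = 0.026), but the call was lost under 7 of 15 alternatives, with an adjusted p of 0.214 at a pseudocount of 0.1 TPM. Those included leaving out E4.75 replicate 2 (adjusted p = 0.0699) or 3 (0.0642) and in vitro replicate 1 (0.071) or 3 (0.0546). Ets2, an ETS factor, and the ligand gene Bmp8b also rose. Sox2 was at 5.53, 6.07 and 4.504 TPM in vitro against 1.73, 2.46 and 1.92 TPM at E4.75, low in each library of both groups, and its call was lost without E4.75 replicate 1 (adjusted p = 0.095) or 3 (0.0789) or in vitro replicate 1 (0.0754) or 2 (0.0913).

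The 7 factors that did not pass were Tfap2c, Elf5, Eomes, Wnt7b, Fgfr2, Tead4 and Cdx2. Tfap2c, an AP-2 factor of the trophectoderm, was at 380.2, 345 and 306 TPM in vitro against 149, 144 and 157 TPM at E4.75, without overlap, but its log2 difference of 1.19 ± 0.53 had an adjusted p of 0.0837. Cdx2, the homeobox factor of the trophectoderm, was at 12.9, 3.17 and 4.27 TPM in vitro, 0 and 8.60 TPM in vivo and 3.02, 1.96 and 2.79 TPM at E4.75, with 1 cultured library well above the rest. With a pseudocount of 0.1 TPM only 2 of the 14 factors passed. With array weights, with only the libraries compared or with the replicate block 9 passed, Tfap2c and Wnt7b being called there (adjusted p = 7.5e-05 and 0.000739 with only the libraries compared). The 14 genes summed to 1821 to 2048 TPM per library in ExE E5.5 in vitro, 1712 to 1805 TPM in vivo and 772 to 846 TPM in ExE E4.75, so the E4.75 libraries were lowest.

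**Figure D1:**
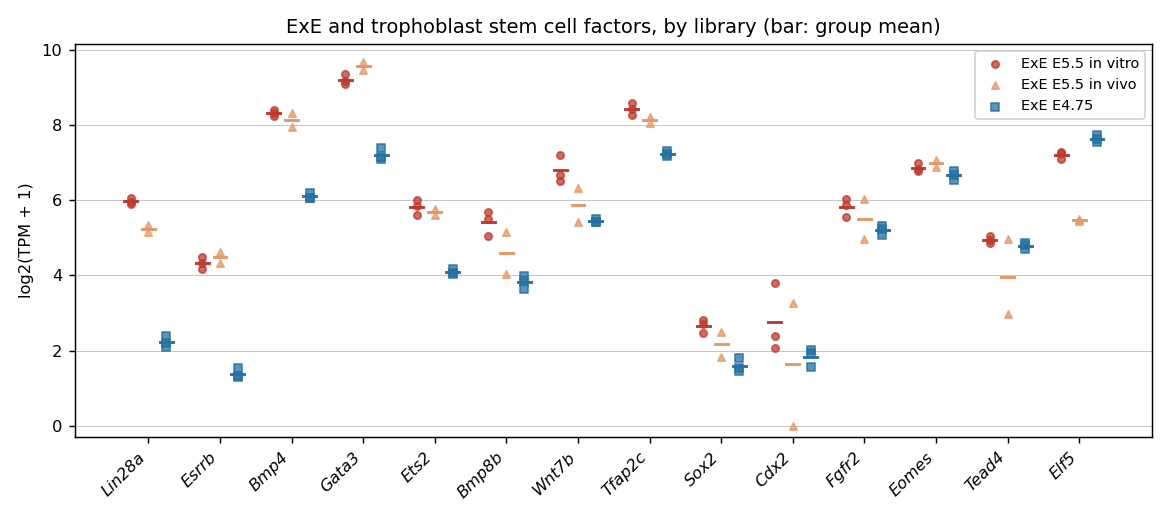
The plot gives log2(TPM + 1) of the 14 ExE and trophoblast stem cell factors in each library, for ExE E5.5 in vitro (3 circles), ExE E5.5 in vivo (2 triangles) and ExE E4.75 (3 squares), with a bar at each group mean. Lin28a, Esrrb and Bmp4 stand above E4.75 in all E5.5 libraries, Eomes is near the same level throughout, and Elf5 is lowest in vivo.

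Genes of the trophectoderm, the epithelium of the blastocyst that gives rise to ExE, fell in ExE E5.5 in vitro. Of 14 tested, 8 fell and 2 rose, and their summed level was 4708 to 5357 TPM per library in vitro, 3274 to 3507 TPM in vivo and 11382 to 11842 TPM at E4.75. Tspan8 (chr10:115816832-115849893), a tetraspanin, was at 0, 3.63 and 0.725 TPM in ExE E5.5 in vitro, 0 and 2.47 TPM in vivo and 609.9, 550.1 and 536 TPM in ExE E4.75. The log2 difference in vitro was -8.14 ± 0.51 (adjusted p = 5.79e-19), and no E5.5 library came near those of E4.75.

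Dppa1 (chr11:46607772-46629261), a gene of the preimplantation embryo, was listed at 0 in every E5.5 library of either kind and at 86.6, 79.6 and 71.8 TPM in ExE E4.75. The water and glycerol channel gene Aqp3 fell to 1.88 ± 1.40 TPM in vitro, against 77.4 ± 4.199 TPM at E4.75. Lgals1, a galectin, was among the genes of largest loss in TPM, at 253, 297 and 259.8 TPM in vitro against 5280.2, 5429 and 5471 TPM at E4.75. Its log2 difference was -4.32 ± 0.26 (adjusted p = 2.52e-19).

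The keratins did not move together. Krt8 fell to 409 ± 19.8 TPM in ExE E5.5 in vitro against 1636 ± 137 TPM at E4.75, and Krt7 and Krt19 fell too, whereas Krt18, the usual partner of keratin 8 in filaments, was at 2984, 2287 and 2543 TPM in vitro against 1973, 2122 and 2183 TPM at E4.75 and did not pass (log2 difference 0.31 ± 0.15, adjusted p = 0.128). The 2 genes that rose were Slc2a3, a glucose transporter, at 457 ± 43.7 TPM in vitro against 60.7 ± 3.66 TPM at E4.75, and Crb3, an apical polarity protein, at 75.7 ± 4.60 against 32.9 ± 2.44 TPM. The call of Crb3 was lost under 6 of 15 alternatives, among them leaving out E4.75 replicate 2 (adjusted p = 0.0599) or 3 (0.0631) or in vitro replicate 2 (0.0624). Id2, an inhibitor of differentiation high in early trophectoderm, was at 946, 1048 and 1139 TPM in vitro, 1557 and 1489.8 TPM in vivo and 1214, 1119 and 1082 TPM at E4.75, with overlap of the in vitro and E4.75 libraries.

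Giant cell genes were low in ExE E5.5 in vitro. Of 12 tested, 0 rose and 6 fell, and their sum was 216 to 244 TPM per library in vitro, 125 to 168 TPM in vivo and 2606 to 2864 TPM in ExE E4.75. Prl3d1 (chr13:27094190-27100258) was at 34.0, 49.6 and 53.2 TPM in vitro, 58.6 and 22.5 TPM in vivo and 1613, 1461 and 1429 TPM at E4.75, a log2 difference of -5.03 ± 0.85 in vitro (adjusted p = 3.56e-06). Its levels in TGC at E4.75 were over 10 times those in ExE E4.75.

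Prl3d1, Prl3d2 and Prl3d3 are near-identical copies, so the split of reads between them is uncertain. Their longest annotated transcripts shared 98.4% to 98.5% of aligned bases. The promoter windows of Prl3d1 (chr13:27093939-27094238, plus strand) and Prl3d2 (chr13:27121445-27121744, plus strand) are shown to let the likeness be seen. They run from 250 bases before to 50 bases after the start of the gene, in RefSeq's GRCm38.p6 sequence, and the capitals mark the 6 of 283 aligned bases that differ.
Prl3d1: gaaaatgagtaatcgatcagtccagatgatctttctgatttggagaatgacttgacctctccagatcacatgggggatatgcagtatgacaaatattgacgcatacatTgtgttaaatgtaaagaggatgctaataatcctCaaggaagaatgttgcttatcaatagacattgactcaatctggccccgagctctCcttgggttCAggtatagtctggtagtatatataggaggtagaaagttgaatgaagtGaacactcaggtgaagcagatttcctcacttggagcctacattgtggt
Prl3d2: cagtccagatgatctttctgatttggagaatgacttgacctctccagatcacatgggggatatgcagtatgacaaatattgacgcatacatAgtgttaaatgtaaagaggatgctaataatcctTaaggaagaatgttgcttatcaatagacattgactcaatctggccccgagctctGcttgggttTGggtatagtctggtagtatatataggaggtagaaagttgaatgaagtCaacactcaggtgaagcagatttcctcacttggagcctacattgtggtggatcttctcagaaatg
Outside the capitals every aligned base of the pair is the same, an identity of 97.9%. Prl3d2 was at 8.74, 12.4 and 13.1 TPM in vitro against 439, 389 and 387 TPM at E4.75, and Prl3d3 at 3.59, 4.25 and 4.48 against 309, 276 and 268 TPM.

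Plac1, an X-linked placental gene, was at 4.51, 9.43 and 12.2 TPM in ExE E5.5 in vitro against 442, 427 and 427 TPM in ExE E4.75 (log2 difference -5.57 ± 0.52, adjusted p = 8.34e-13). Among the transcription factors of giant cells, Hand1 fell to 138 ± 11.3 TPM in vitro against 278 ± 7.57 TPM at E4.75, and Gata2 to 6.17 ± 1.95 against 31.0 ± 3.91 TPM. Hand1 lost its call without E4.75 replicate 1 (adjusted p = 0.0413) or 3 (0.0422), where the difference lay just under the minimum, or without in vitro replicate 2 (0.052). Plau, urokinase, which invading trophoblast secretes, was listed at 0 in all 5 ExE libraries of E5.5 and at 40.9, 36.8 and 39.4 TPM at E4.75. Of 9 tested genes of the ectoplacental cone and spongiotrophoblast, Ascl2, a basic helix-loop-helix factor of that lineage, fell to 4.71 ± 2.90 TPM in vitro against 123 ± 9.28 TPM at E4.75, Ceacam10 fell and Flt1 rose. Of 10 tested genes of the chorion and labyrinth 1 rose and 1 fell, and 2 fell without E4.75 replicate 1 or 2 or in vitro replicate 1 or 3, while 2 rose without in vitro replicate 2. Gcm1, the labyrinth factor, was among those that did not pass.

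Several genes listed for the epiblast were present in ExE E4.75 and at or near 0 in ExE E5.5 in vitro. Pou5f1, the core pluripotency factor Oct4, was listed at 0 in all 5 ExE libraries of E5.5 and was at 23.1, 23.0 and 26.2 TPM in ExE E4.75, where the Epi libraries of that age held 158 ± 10.97 TPM. Nanog, its partner, was at 0.131, 0.0950 and 0 TPM in vitro against 16.4, 17.4 and 14.7 TPM at E4.75. Unlike Pou5f1, Nanog was lower in the Epi libraries of E4.75 than in ExE E4.75, as given near the end. Gdf3, Fgf4 and Tdgf1, secreted factors of the epiblast, and the amino acid transporter gene Slc7a3 also fell. Fgf4 was listed at 0 in all 5 E5.5 libraries.

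Dppa5a, which encodes an RNA-binding protein of early embryos, was at 239.8, 231 and 236 TPM in vitro, 463 and 539 TPM in vivo and 6834, 6832 and 7021 TPM at E4.75. It thus set most of the list's sum of 7741 to 7979 TPM per library at E4.75, beside a sum of 1896 to 2049 TPM in vitro. Dppa5a was also among the most abundant genes of the trophectoderm libraries of E3.5 and E4.5, so it was not particular to the epiblast in this series. In all 7 of the 18 listed genes fell and 3 rose. The 3 were Pou3f1, a POU factor, at 119 ± 10.0 TPM in vitro against 3.00 ± 0.154 TPM at E4.75, Sox3, at 6.08 ± 1.37 against 0.0391 ± 0.0485 TPM, and Dppa4, at 414 ± 43.4 against 79.4 ± 8.94 TPM. These 3 were higher in ExE E5.5 in vivo too, by 5.76 ± 0.37, 2.25 ± 0.52 and 1.35 ± 0.35 from E4.75. Fewer cells of a type and less RNA per cell cannot be told apart in such pools.

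Endoderm transcripts were present in the ExE libraries of E5.5 in vitro and of E4.75, and several were near 0 in vivo. The 22 listed genes of primitive and visceral endoderm summed to 3309 to 3564 TPM per library in ExE E5.5 in vitro, 919 to 991 TPM in vivo and 2435 to 2556 TPM in ExE E4.75. Nearly all of the in vivo sum was Apoe, at 893 and 942 TPM there. Apoe was at 1670, 1416 and 1450 TPM in vitro and 894, 1048 and 1055 TPM at E4.75, and was called in neither comparison with E4.75. The 5 genes given next, chosen after their values were seen, mark this lineage, and none was called between in vitro and E4.75. Sox17, an endoderm factor, was at 14.4, 8.91 and 19.7 TPM in vitro, 0 and 0.0399 TPM in vivo and 16.4, 18.1 and 16.4 TPM at E4.75. Dab2, an endocytic adaptor, was at 503, 473 and 564 TPM, 2.33 and 4.96 TPM and 502, 462 and 451 TPM in the same order, and Ttr, the thyroxine carrier, at 90.8, 79.7 and 101 TPM, 0.315 and 0.836 TPM and 61.0, 58.0 and 55.0 TPM.

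The receptor genes Cubn and Amn of the visceral endoderm had the same arrangement, at 20.96 ± 1.06 and 158 ± 35.0 TPM in vitro, 0.0249 ± 0.00668 and 10.3 ± 3.04 TPM in vivo, and 26.7 ± 0.314 and 136 ± 18.2 TPM at E4.75. In this list 6 genes rose in vitro, Rbp4, Apob, Afp, Gata4, Apoa1 and Foxa2, of which the retinol and lipid carrier genes Rbp4 and Apob reached 9.60 ± 1.53 and 5.77 ± 0.766 TPM against 0.0873 ± 0.151 and 0.215 ± 0.0876 TPM at E4.75. Apoa1 and Foxa2 were the least certain of these, since the call of Apoa1 was lost without any 1 of the 6 libraries (adjusted p from 0.0576 to 0.0845) and that of Foxa2 without any but in vitro replicate 3 (0.0798 to 0.261). Gata6, Srgn and Pdgfra fell, with Pdgfra at 4.53, 0.484 and 3.78 TPM in vitro against 6.43, 7.52 and 5.35 TPM at E4.75, a call that in vitro replicate 2 decided (adjusted p = 0.238 without it, with a log2 difference of -0.52). At a pseudocount of 0.1 TPM the calls of Gata4, Apoa1, Foxa2, Gata6, Srgn and Pdgfra were lost, as were those of Des and Lama1 given next. In vivo 17 of the 22 were lower than at E4.75 and 1 was higher. The part of endoderm cells in the results below was not tested, and the in vivo values are given beside many of them.

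Markers of the uterus and blood were at or near 0. For uterine stroma 4 genes were tested, and the list summed to 4.22 to 7.003 TPM in vitro and 1.36 to 2.79 TPM at E4.75, with Col1a1, Col3a1 and Hand2 below the limit for testing. Des, desmin, passed at 3.43, 4.22 and 6.93 TPM in vitro against 0.578, 1.09 and 1.08 TPM at E4.75. Blood genes summed to 0 to 1.22 TPM and 1.28 to 2.06 TPM, with 0 of 4 tested called. Of 10 genes of the parietal endoderm and basement membrane 4 fell, among them Lama1, a laminin chain, at 5.15 ± 0.657 TPM in vitro against 18.0 ± 0.977 TPM at E4.75, and their summed level was 348 to 358 TPM against 478 to 508 TPM.

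**Figure D2:**
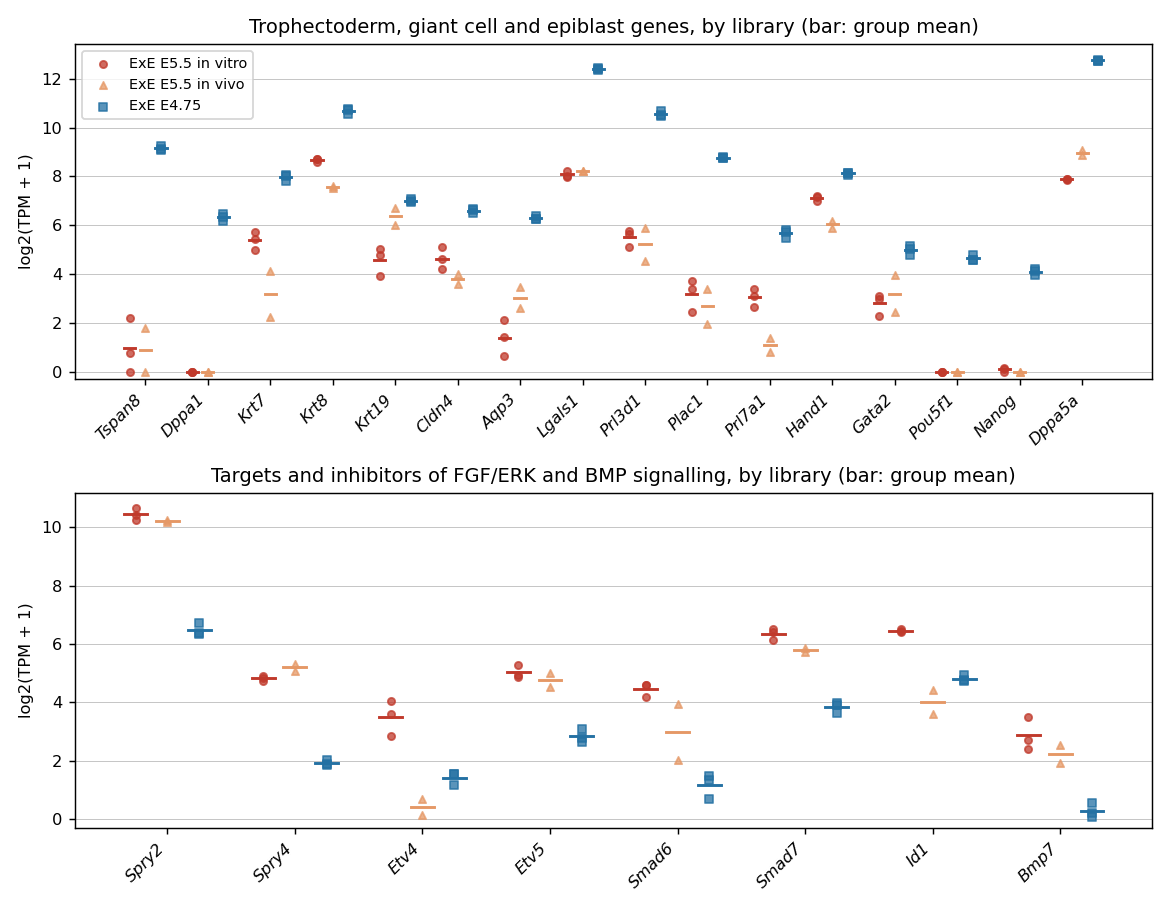
The plots give log2(TPM + 1) in each library of ExE E5.5 in vitro (circles), ExE E5.5 in vivo (triangles) and ExE E4.75 (squares), with bars at group means. Above are trophectoderm, giant cell and epiblast genes picked from those that fell in vitro, so all are highest at E4.75. Below are genes of FGF and BMP signalling picked from those that rose, of which Etv4 and Id1 were high in the in vitro libraries and not in the in vivo ones. Members of these lists that went the other way or did not pass are not drawn.

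Feedback inhibitors and targets of FGF signalling rose in ExE E5.5 in vitro. FGF ligands act through receptor kinases and ERK, which induces genes such as Spry2 and Spry4 that dampen the pathway. Of 17 genes of receptors and ERK targets tested, 9 rose and 0 fell, with a median of 1.28. Spry2 (chr14:105891947-105896819) was at 1217, 1625 and 1383 TPM in vitro, 1228 and 1171 TPM in vivo and 104, 83.1 and 80.1 TPM at E4.75, a log2 difference of 3.97 ± 0.42 (adjusted p = 5.29e-11). Every E5.5 library was more than 10 times the level of any at E4.75.

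Spry4 was at 27.6 ± 1.75 TPM in vitro against 2.82 ± 0.256 TPM at E4.75, and Spred2, a related inhibitor, at 15.1 ± 3.36 against 1.75 ± 0.385 TPM. Etv5, an ETS factor that ERK induces, was at 32.1 ± 5.30 TPM in vitro against 6.24 ± 1.21 TPM at E4.75. Etv4, Spred1, Fgfr1 and Fgfr4 rose as well, and so did Il17rd, though not without in vitro replicate 1 (adjusted p = 0.0724). Fgfr2, the receptor through which trophoblast stem cells receive FGF4, was at 64.5, 57.6 and 46.2 TPM in vitro against 38.7, 32.5 and 36.8 TPM at E4.75 and did not pass (adjusted p = 0.321). Dusp6, the ERK phosphatase, overlapped between the groups, at 160.3, 130.2 and 133 TPM against 135, 136 and 125 TPM, so the readouts of ERK did not all move.

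Of 19 tested genes of the BMP pathway 10 rose and 0 fell, a median of 1.23. The ligands were Bmp4, given above, with Bmp2, Bmp8a, Bmp8b and Bmp7, the last at 10.4, 5.58 and 4.25 TPM in vitro, 4.76 and 2.82 TPM in vivo and 0.0588, 0.455 and 0.152 TPM at E4.75. The call of Bmp8a was lost without E4.75 replicate 1 (adjusted p = 0.0823) or in vitro replicate 2 (0.144). Among intracellular members Smad1 and Smad4, which carry the signal, rose, but Smad1 lost its call without any 1 library except in vitro replicate 1 (adjusted p from 0.0531 to 0.168). Smad6 and Smad7, the inhibitory SMADs that it induces, were at 21.3 ± 3.37 and 81.5 ± 11.03 TPM in vitro against 1.33 ± 0.624 and 13.3 ± 1.77 TPM at E4.75 (log2 differences 3.29 ± 0.51 and 2.52 ± 0.37). The target Id1 rose, whereas Id3 was at 68.5, 87.2 and 82.5 TPM in vitro against 67.1, 70.6 and 66.9 TPM at E4.75 and did not pass. In vivo Id3 was at 7.38 and 3.23 TPM, below both. With a pseudocount of 0.1 TPM 5 of the 19 genes passed.

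The NODAL precursor is cleaved by the proprotein convertases that ExE supplies, and both genes for these rose. Furin was at 7.83, 4.68 and 6.31 TPM in ExE E5.5 in vitro, 1.55 and 2.51 TPM in vivo and 1.91, 1.54 and 1.27 TPM in ExE E4.75, and Pcsk6, PACE4, at 38.5, 28.1 and 44.4, 16.7 and 26.0 and 10.9, 12.1 and 10.8 TPM in these groups. The log2 differences in vitro were 1.49 ± 0.40 (adjusted p = 0.00274) and 1.61 ± 0.42 (adjusted p = 0.00217), which at a pseudocount of 0.1 TPM had adjusted p-values of 0.104 and 0.0961, and in vivo neither was called. The receptor gene Acvr2a, whose call was lost without E4.75 replicate 2 (adjusted p = 0.0588) or in vitro replicate 1 (0.0835) or 2 (0.0532), and Smad3, which passes the signal to the nucleus, rose, and Lefty1, a NODAL antagonist, fell to 0.0315 ± 0.0546 TPM in vitro against 4.44 ± 0.689 TPM at E4.75. With a pseudocount of 0.1 TPM 0 of the 13 tested genes of this pathway were higher and 3 were lower, in place of 4 and 1.

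In the WNT pathway 6 of 18 tested genes rose and 3 fell. Wnt6, a ligand, was at 54.5, 57.9 and 49.0 TPM in vitro, 18.9 and 40.5 TPM in vivo and 2.30, 5.496 and 5.68 TPM at E4.75 (log2 difference 3.39 ± 0.40, adjusted p = 1.08e-09). Wnt3, a ligand of the posterior epiblast and visceral endoderm, was at 6.79, 1.34 and 5.001 TPM in vitro and listed at 0 in the 3 libraries of ExE E4.75 and in both of ExE E5.5 in vivo. The DNA-binding partners of beta-catenin divided, with Tcf7l1 at 162 ± 13.9 TPM and Tcf7 at 14.4 ± 4.19 TPM in vitro against 26.9 ± 2.47 and 2.37 ± 0.287 TPM at E4.75, and Lef1 at 0.0498, 0 and 0 TPM against 1.91, 2.03 and 2.05 TPM. The antagonist Dkk1 fell to 3.09 ± 0.645 TPM in vitro against 35.5 ± 3.61 TPM at E4.75, and the common target Axin2 did not pass.

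Hippo signalling holds the coactivators YAP and TAZ out of the nucleus, where they would bind TEAD factors. Lats2, the kinase, Nf2, its scaffold, and Amotl1, which tethers YAP, were at 23.0 ± 2.13, 19.8 ± 1.01 and 16.6 ± 2.28 TPM in vitro against 5.78 ± 0.792, 6.42 ± 0.703 and 0.431 ± 0.140 TPM at E4.75. Tead2 rose to 37.5 ± 6.82 TPM against 9.69 ± 0.301 TPM. Ankrd1, a YAP target, fell to 1.79, 0 and 0 TPM in vitro against 4.30, 3.35 and 6.52 TPM at E4.75, and Yap1 and Wwtr1, the gene of TAZ, did not pass. Of 11 tested genes 4 rose and 1 fell.

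Junction genes moved in both directions. Cdh1, E-cadherin, was at 112, 95.5 and 121 TPM in ExE E5.5 in vitro, 139 and 122 TPM in vivo and 44.3, 35.4 and 34.9 TPM at E4.75 (adjusted p = 3.21e-05). Tjp1, a tight junction scaffold, was at 13.7 ± 1.73 TPM in vitro against 4.25 ± 0.641 TPM at E4.75. The tight junction membrane proteins Ocln and Cldn7 fell, to 15.6 ± 5.07 and 142 ± 41.4 TPM against 35.0 ± 1.20 and 288 ± 8.26 TPM, while Epcam was at 531, 528 and 536 TPM against 525, 537 and 548 TPM. Ocln lost its call without E4.75 replicate 1 (adjusted p = 0.0541) or 2 (0.0543) or in vitro replicate 3 (0.141), and Cldn7 without in vitro replicate 3, where its difference was -0.80. Of 15 tested junction genes 4 rose and 2 fell, and the count of risers was 2 after median-ratio scaling and 1 after removal of the trend with transcript length.

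Among 22 actin and annexin genes 2 rose and 11 fell, so most calls in this list ran opposite to those of all genes. Actb, beta-actin, took 35419.6, 40638 and 36292 TPM in vitro, 67243 and 56197 TPM in vivo and 15794, 13479.6 and 13918 TPM at E4.75. The thymosins, which bind actin monomers, fell: Tmsb10 to 2076, 2078 and 2134 TPM in vitro against 12265, 11276 and 11373 TPM at E4.75, and Tmsb4x to 569 ± 80.3 against 3208 ± 224 TPM. Anxa2, a membrane-binding annexin, fell to 159 ± 18.5 TPM in vitro against 754 ± 16.7 TPM at E4.75, and tropomyosins and Actg1 fell too. The rise of Actb did not pass after quantile normalization, and the count of risers was 1 without E4.75 replicate 2 and 3 without replicate 1.

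Imprinted genes, expressed from the copy of 1 parent, were higher in 11 and lower in 0 of 21 tested, with a median of 1.15 and a median transcript length of 4722 bases against 3005 over all genes. Grb10 (chr11:11930508-12038683), an adaptor that restrains growth factor signalling, was at 58.3, 56.5 and 69.2 TPM in vitro, 32.4 and 26.4 TPM in vivo and 3.33, 2.34 and 2.12 TPM at E4.75 (log2 difference 4.12 ± 0.27, adjusted p = 5.63e-18). Mest, a paternally expressed gene, was at 199.9 ± 13.3 TPM in vitro, 63.6 ± 4.89 TPM in vivo and 30.7 ± 0.748 TPM at E4.75, and the RNA gene Meg3 at 16.2 ± 2.49, 21.5 ± 2.90 and 2.10 ± 0.482 TPM. Sfmbt2, Igf2r, H19, Gab1, Slc38a4, Peg3, Peg10 and Jade1 made up the rest. Igf2, the growth factor, was at 51.1, 44.3 and 36.7 TPM in vitro against 31.3, 32.4 and 35.6 TPM at E4.75, and did not pass. Phlda2, a maternally expressed brake on placental growth listed with the ectoplacental cone genes, was at 353, 313 and 345 TPM in vitro and 297, 317 and 336 TPM at E4.75 but at 1987 and 1876 TPM in vivo.

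Polycomb complexes deposit H3K27me3 and H2AK119ub1, marks of silenced developmental genes, while the KMT2 and SETD1 enzymes place H3K4me3 and KDM5 enzymes remove it. Of 29 Polycomb genes 9 rose and 0 fell, a median of 0.44. Among these were Ezh2, the H3K27 methyltransferase, and Suz12, with the accessory subunits Jarid2 at 95.9, 74.7 and 89.4 TPM in vitro, 75.4 and 75.7 TPM in vivo and 20.0, 20.5 and 19.9 TPM at E4.75, and Phf19 at 20.2, 12.3 and 15.9, 21.2 and 22.3 and 2.14, 1.97 and 1.81 TPM. The groups overlapped for neither gene, with log2 differences of 2.05 ± 0.28 (adjusted p = 4.75e-08) and 2.50 ± 0.53 (adjusted p = 0.000151). The chromodomain subunits Cbx2 and Cbx7 rose. Eed, the third core subunit of the H3K27 methyltransferase, was at 125, 127 and 134 TPM against 129, 108 and 111 TPM.

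Of 18 H3K4 methyltransferase and histone demethylase genes 10 rose and 0 fell, and their median transcript length was 6468 bases. Of the lists with at least 9 tested members this was the highest share of risers, narrowly above the developmental regulators (11 of 20). With the length trend removed Setd1b, Men1 and Kdm6a lost their calls. Men1 also lost its call without any 1 library except in vitro replicate 2 (adjusted p from 0.0664 to 0.151), and Kdm6a without E4.75 replicate 3 or in vitro replicate 1. Kmt2d was at 44.5, 29.9 and 29.9 TPM in vitro, 58.6 and 47.8 TPM in vivo and 4.64, 3.24 and 3.41 TPM at E4.75, and Kdm5a at 93.4, 81.1 and 75.7, 158 and 123 and 11.7, 8.57 and 10.2 TPM. Kdm6b, an H3K27 demethylase, was at 125 ± 4.196 TPM in vitro, 260.0 ± 15.2 TPM in vivo and 17.9 ± 2.81 TPM at E4.75. For these 3 the log2 differences in vitro were 2.90 ± 0.32, 2.93 ± 0.30 and 2.75 ± 0.33, and no library of E4.75 reached any of E5.5. The shared subunits of the KMT2 complexes Ash2l and Dpy30 did not pass, at 229 ± 10.4 and 337 ± 14.0 TPM in vitro against 168 ± 10.5 and 442 ± 2.16 TPM at E4.75.

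In DNA methylation the largest difference was a fall. Dnmt3l, the cofactor of the de novo methyltransferases, was at 8.09, 11.2 and 16.4 TPM in vitro, 9.50 and 28.8 TPM in vivo and 118, 139.5 and 128 TPM at E4.75 (log2 difference -3.37 ± 0.39, adjusted p = 5.29e-10). Dnmt3a fell to 9.60 ± 1.49 TPM in vitro against 23.0 ± 0.899 TPM at E4.75, whereas Dnmt3b was at 164, 173 and 188 TPM against 101, 93.9 and 96.7 TPM, without overlap but short of the minimum difference (0.84 ± 0.22). Zfp57, which protects imprints, Uhrf1, which brings DNMT1 to replicated DNA, and Tdg rose.

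Genes that methylation often silences outside the germ line went both ways, with 6 of 17 lower and 2 higher. Sycp3, of the synaptonemal complex, fell to 5.99 ± 2.07 TPM against 32.3 ± 3.87 TPM at E4.75, and Hormad1, Mael, Asz1, Dazl and Sycp1 fell as well. The call of Sycp1 was lost without E4.75 replicate 1 (adjusted p = 0.178) or 3 (0.0888) or in vitro replicate 1 (0.0933) or 3 (0.37), and the count of risers was 1 without in vitro replicate 1 or 3. Rhox5, an X-linked homeobox gene of the placenta, rose to 4871, 4946 and 4941 TPM in vitro, with 3981 and 3975 TPM in vivo, against 1020.1, 1006 and 1024 TPM at E4.75.

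Of 20 tested developmental regulators 11 rose and 2 fell, 1 without in vitro replicate 1, and several that rose in vitro did not in vivo. Mixl1 (chr1:180693043-180697034), a homeobox factor of the primitive streak, was at 119, 120.1 and 106 TPM in ExE E5.5 in vitro, 21.2 and 4.53 TPM in vivo and 2.71, 1.08 and 2.71 TPM in ExE E4.75 (log2 difference 5.24 ± 0.56 in vitro, adjusted p = 5.96e-11). Tbx3 was at 34.4, 20.1 and 19.6 TPM in vitro, 0 and 1.97 TPM in vivo and 2.95, 2.88 and 3.78 TPM at E4.75, and Lhx1 at 14.7, 12.3 and 9.88, 0 and 0.346 and 1.57, 1.28 and 1.55 TPM. Lhx1 and Tbx3, which act in the visceral endoderm among other places, thus stood in vivo below their level at E4.75. Meis1, a HOX cofactor, was higher under both conditions, at 32.5 ± 5.80 TPM in vitro and 12.7 ± 3.57 TPM in vivo against 0.998 ± 0.313 TPM at E4.75. Cdx1, a homeobox factor of the caudal family, was listed at 0 in all 5 E5.5 libraries and at 19.5, 18.1 and 24.9 TPM at E4.75.

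Genes of glycolysis, which splits glucose to pyruvate, rose in 8 and fell in 1 of 18. Ldhb (chr6:142490249-142507957), the lactate dehydrogenase subunit of oxidative tissue, had the largest rise of all named genes, at 268, 307 and 294 TPM in vitro, 170.2 and 159.8 TPM in vivo and 2.24, 3.74 and 2.88 TPM at E4.75 (log2 difference 6.22 ± 0.69, adjusted p = 1.85e-10). Pkm, pyruvate kinase, rose to 3890.0, 2963 and 3235 TPM in vitro against 895, 934 and 974 TPM at E4.75, and Hk1, Pfkl, Slc2a1, Aldoa, Eno1 and Pgk1 rose with smaller differences, that of Pgk1 being under the minimum without E4.75 replicate 3 or in vitro replicate 2 or 3. Gapdh fell to 582 ± 37.4 TPM against 1179 ± 109.5 TPM, by a difference of -1.01 ± 0.12 that was -0.97 without E4.75 replicate 2, -0.98 without replicate 3 and -0.96 without in vitro replicate 2. After median-ratio scaling the count of risers was 4.

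Oxidative phosphorylation went the other way, with 0 of 20 higher and 6 lower, a median of -0.81 and a median transcript length of 1804.5 bases. Atp5b, a subunit of ATP synthase, was at 813, 682 and 754 TPM in vitro against 1959.7, 2081 and 2079 TPM at E4.75 (log2 difference -1.45 ± 0.11). The count was 3 after quantile normalization and 12 after median-ratio scaling. Of the hypoxia genes 2 rose and 1 fell of 17: Pdk1, a pyruvate dehydrogenase kinase, rose to 37.6 ± 8.19 TPM in vitro against 2.08 ± 0.160 TPM at E4.75, while Vegfa and Car9 did not pass, and without in vitro replicate 3 there were 2 that fell. Nnt, a mitochondrial transhydrogenase, rose to 73.8, 58.6 and 72.9 TPM in vitro, with 91.3 and 70.6 TPM in vivo, against 1.56, 1.06 and 1.603 TPM at E4.75.

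Cholesterol synthesis genes rose in 8 of 21 and fell in 0. Hmgcs1, an enzyme of the first steps, was at 192, 165 and 164 TPM in vitro against 62.1, 49.0 and 46.0 TPM at E4.75, without overlap. The count was 3 after median-ratio scaling and 4 after removal of the length trend. In the amino acid list, the 3 serine synthesis enzymes Phgdh, Psat1 and Psph all fell, to 235 ± 42.0, 262 ± 40.5 and 69.8 ± 4.30 TPM in vitro against 759 ± 54.1, 541 ± 11.8 and 142 ± 7.88 TPM at E4.75. Without in vitro replicate 2 the difference of Psat1 was -0.92, and that of Psph was -0.98 without E4.75 replicate 1 and -0.97 without in vitro replicate 3, all under the minimum.

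Among targets of ATF4, a factor of the amino acid response, Trib3, a pseudokinase, was at 53.5, 39.7 and 37.0 TPM in vitro, 3.99 and 7.97 TPM in vivo and 6.46, 4.19 and 6.04 TPM at E4.75, and Chac1, which degrades glutathione, at 25.8, 19.4 and 20.6, 0 and 4.71 and 1.74, 2.34 and 4.54 TPM. Both rose in vitro, and neither was called in vivo. Of the 19 genes of that list 7 rose. The count was 3 without in vitro replicate 1, after quantile normalization, after median-ratio scaling and with the length trend removed, and 4 without E4.75 replicate 3 and with a pseudocount of 0.1 TPM. Of the 12 ER chaperone genes 1 rose and 1 fell.

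Immediate early genes, which cells switch on within minutes of a stimulus and which dissociation can induce, rose in 7 and fell in 2 of 14, 1 without in vitro replicate 1. Egr1 was at 38.6, 32.9 and 40.1 TPM in vitro, 34.4 and 32.7 TPM in vivo and 4.56, 3.81 and 5.66 TPM at E4.75, and Junb at 231 ± 54.5, 209.7 ± 39.1 and 61.1 ± 1.40 TPM. Btg2, an antiproliferative gene, was at 98.8, 107 and 88.8 TPM in vitro, 8.92 and 9.22 TPM in vivo and 16.2, 14.8 and 14.0 TPM at E4.75. Myc was at 173, 129 and 137 TPM in vitro against 186, 186 and 194 TPM at E4.75, lower in all 3 cultured libraries without passing, and Fos did not pass.

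Antioxidant genes fell in 7 and rose in 1 of 17. The glutathione transferase Gsta4 was at 9.12, 21.8 and 5.70 TPM in vitro against 387, 375 and 377 TPM at E4.75, and Hmox1, heme oxygenase, fell to 98.4 ± 7.83 TPM against 303 ± 10.8 TPM. Sod1, superoxide dismutase, rose to 10315, 9767 and 8849 TPM against 2758, 2650.3 and 2728 TPM. Of 10 heat shock genes 3 fell, Hspb1, Hspe1 and Hsp90aa1, and the most abundant, Hspa8, was at 6978, 6496 and 7126 TPM in vitro against 3975, 4192 and 4177 TPM at E4.75.

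Of 14 p53 targets Aen, an exonuclease, was the only call in vitro, with 2 calls without in vitro replicate 2 or 3, whereas in vivo 11 were lower than at E4.75 and 0 higher. Ccng1, cyclin G1, was at 108, 130.1 and 141 TPM in vitro, 9.48 and 16.2 TPM in vivo and 197, 175 and 182 TPM at E4.75. The interferon list gave 1 riser of 9, Irf1. Cell cycle genes were called higher about as often as the 14.8% of all genes: 2 of 17 replication genes rose, Rrm2 and Mcm2, and of 20 mitosis genes 3 rose and 1 fell (2 without E4.75 replicate 1 or in vitro replicate 1). With no minimum difference 10 of the 17 replication genes and 7 of the 20 mitosis genes were higher, beside 3060 of all 15567 genes tested. For replication genes the likeness to all genes thus depended on the minimum. Kif11, the spindle motor, was at 121 ± 8.60 TPM in vitro against 29.6 ± 3.27 TPM at E4.75, and Ccnb1, cyclin B1, at 630.5, 549 and 509 against 543, 537 and 512 TPM. Of 14 ribosome biogenesis genes 3 rose, among them the RNA polymerase I subunits Polr1a and Polr1b.

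**Figure D3:**
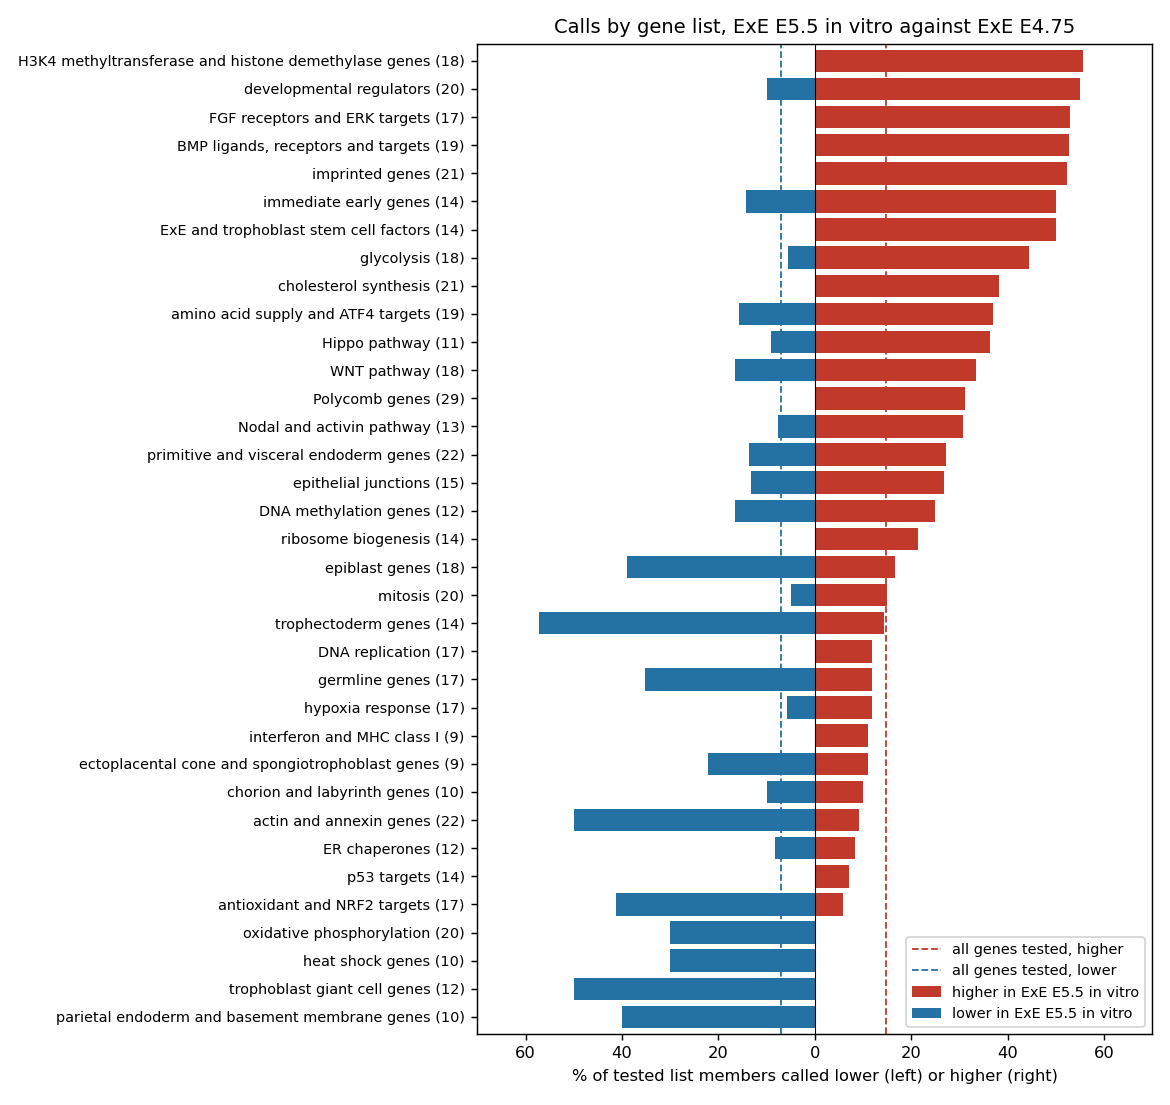
Bars give the percentage of tested members of each list called higher (right) or lower (left) in ExE E5.5 in vitro against ExE E4.75, for lists with at least 9 tested members, whose number stands in brackets. The dashed lines mark the same over all genes tested, 14.8% higher and 6.97% lower, with H3K4 and demethylase genes at the top and parietal endoderm genes at the bottom.

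Outside these lists the largest rises were of genes low at E4.75. Cyp26a1 (chr19:37697798-37701536), which degrades retinoic acid, was at 864, 784 and 785 TPM in vitro, 268 and 258 TPM in vivo and 16.9, 18.6 and 21.4 TPM at E4.75 (log2 difference 5.35 ± 0.32, adjusted p = 1.07e-19). Cavin1, a coat protein of caveolae, was at 126, 134 and 107 TPM in vitro, 99.8 and 105 TPM in vivo and 2.15, 1.23 and 2.03 TPM at E4.75, and Hs3st3b1, a heparan sulfate sulfotransferase, at 108, 121 and 104, 244 and 199 and 1.99, 1.90 and 1.96 TPM. The rule that picked these 3 genes required in vitro libraries that do not overlap those of E4.75. Their in vivo libraries also lay far above E4.75, with the cultured ones above those in vivo for Cyp26a1 and below them for Hs3st3b1.

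Lmo4, a LIM-only cofactor, rose to 207 ± 55.3 TPM in vitro against 6.84 ± 1.47 TPM at E4.75, and Rab31, a small GTPase, to 191 ± 12.3 against 8.91 ± 1.22 TPM. Slc4a11, a membrane transporter, was at 94.4, 71.2 and 73.3 TPM in vitro, 1.36 and 0 TPM in vivo and 3.38, 2.78 and 2.84 TPM at E4.75, so that it rose in vitro and was lower in vivo. Ccdc3, Nat8l and Radx completed the set with differences of 5.01 ± 0.32, 4.41 ± 0.20 and 4.61 ± 0.50, beside the small nucleolar RNA gene Snora43. Among abundant genes Ptp4a2, a phosphatase, rose to 2875, 3075 and 2739 TPM in vitro against 339.7, 250.1 and 250.02 TPM at E4.75, and Arglu1, a splicing regulator, to 2839.6, 3076 and 2659.5 against 294, 239 and 222 TPM.

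The largest falls included genes of a homeobox factor, glutathione transferases and secreted proteins. Crxos (chr7:15882617-15904020), a homeobox gene, was at 0.320, 0 and 1.21 TPM in vitro, 12.5 and 0 TPM in vivo and 756, 676 and 702 TPM at E4.75 (log2 difference -8.96 ± 0.55, adjusted p = 3.11e-19). Gsta1, a glutathione transferase, fell to 3.17, 5.83 and 2.77 TPM in vitro against 873, 810.0 and 801 TPM at E4.75, with Gsta2 alongside, and Akr1b8, an aldo-keto reductase, to 10.5, 12.9 and 8.64 against 1006, 1016 and 1009.9 TPM. Gsta1 and Gsta2 are close paralogs, so reads between them may be split unevenly. Lack of overlap between the in vitro and E4.75 libraries was part of the rule that picked these genes.

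Spp1, osteopontin, a secreted ligand of integrins, was at 1.74, 1.23 and 5.29 TPM in vitro against 369.6, 349 and 354 TPM at E4.75. Serpinb6c, a protease inhibitor, fell to 3.86 ± 1.21 TPM against 557 ± 37.4 TPM. Ctsll3, a cathepsin gene of the placental cluster, Calcoco2 and Khdc3 were listed at 0 in all 5 E5.5 libraries, with 218 ± 5.93, 129 ± 11.2 and 68.1 ± 1.29 TPM at E4.75. Fabp3, a fatty acid carrier and an abundant transcript at E4.75, was at 642, 538 and 724 TPM in vitro against 4254, 4376 and 4536 TPM at E4.75, and Fth1, ferritin, was at 2414 ± 144 against 6138 ± 100.02 TPM.

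Ribosomal protein genes divided among the genes of largest difference in TPM. Rpl35 and Rps25 rose to 10047, 11526 and 10276 and 6659.8, 6956 and 6217 TPM in vitro, against 4476, 4156 and 4059 and 3216, 2847 and 2829 TPM at E4.75. Rpl10, Rpl32 and Rps29 fell, to 663 ± 56.2, 1616 ± 159 and 1069 ± 147 TPM against 3356 ± 194, 4337 ± 141 and 3243 ± 185 TPM. After median-ratio scaling Rpl35 and Rps25 had differences of 0.98 and 0.81 and were no longer called. Ribosomal proteins have many processed pseudogenes, which can take reads from them. Ubb, ubiquitin, and Set, a histone chaperone, rose to 6343 ± 381 and 5629 ± 273 TPM against 2742 ± 72.8 and 1732 ± 172 TPM.

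The change in ExE was then set against the change between the same ages in TGC, as a difference of differences in the same fit. It differed for 3085 genes (19.8%), more positive in ExE for 2504 (16.1%) and more negative for 581 (3.73%). Scaling moved this split, with 51.2% in the positive direction after quantile normalization and 48.3% after median-ratio scaling in place of 81.2%, and array weights gave 4842 calls. All 20 mitosis genes were more positive in ExE: Plk1, a mitotic kinase, was at 312 ± 46.8 TPM in ExE E5.5 in vitro and 131 ± 9.45 TPM in ExE E4.75, and at 12.0 ± 3.82 TPM (n = 4) and 78.9 ± 3.57 TPM in TGC of these ages. The same held for 11 of the 14 ExE and trophoblast stem cell factors and 16 of 21 cholesterol genes, and 0 of either list more negative.

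Bmp4 in TGC was at 0.941 ± 0.858 TPM at E5.5 in vitro against 37.4 ± 1.34 TPM at E4.75, giving a difference from ExE of 6.64 ± 0.84 (adjusted p = 9.36e-09). Slc2a3 and Cyp26a1 differed by 7.38 ± 0.40 and 7.01 ± 0.44. In the other direction Prl3d1 differed by -7.42 ± 1.16 and Prl2a1, a prolactin family gene, by -7.28 ± 0.34, the last at 167 ± 5.82 TPM in TGC E5.5 in vitro against 18.1 ± 1.86 TPM in TGC E4.75. Id2, which did not pass in ExE, was at 4.97 ± 1.89 TPM in TGC E5.5 in vitro against 626 ± 51.4 TPM at E4.75, a difference from ExE of 6.64 ± 0.30.

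Against Epi the change differed for 1562 genes (10.0%), 1084 (6.96%) more positive in ExE and 478 (3.07%) more negative. After quantile normalization 55.2% of calls were in the positive direction, in place of 69.4%, and array weights gave 2451 calls. The Epi libraries of E4.75 also held trophoblast genes, with Elf5 at 81.8 ± 2.86 TPM, Eomes at 59.7 ± 1.97 TPM and Tspan8 at 186 ± 11.7 TPM, which at E5.5 in vitro stood at 3.46 ± 2.07, 7.75 ± 0.190 and 0 ± 0 TPM, and their part in these differences was not tested. Of 14 ExE factors 11 were more positive in ExE and 0 more negative, whereas 0 of 20 mitosis genes differed either way. Upp1, uridine phosphorylase, had the largest positive difference of the risers in ExE, 6.52 ± 0.75, at 577 ± 25.9 TPM in ExE E5.5 in vitro and 95.5 ± 13.1 TPM in ExE E4.75, and at 25.5 ± 2.96 and 400.2 ± 29.7 TPM in Epi. Prl3d1 at 0 in Epi E4.75 and 139 ± 54.6 TPM in Epi E5.5 in vitro had a difference of -12.08 ± 1.20.

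Other changes of ExE did not differ by call from those in TGC or Epi. A call needed a difference of at least 1, so its absence does not show equal changes. The interaction of Sod1 against TGC, for example, was under that minimum but several SE from 0. Sod1, Set, Rpl35 and Rps25 rose in ExE, with interactions of -0.79 ± 0.12, -0.48 ± 0.22, 0.01 ± 0.18 and -0.03 ± 0.15 against TGC and -0.06 ± 0.12, 0.15 ± 0.23, -0.55 ± 0.18 and 0.31 ± 0.15 against Epi. The falls of Rpl10, Rpl32, Ppia and Atp5b had interactions of -0.48 ± 0.15, 0.06 ± 0.20, 0.15 ± 0.13 and 0.15 ± 0.15 against TGC, and -0.18 ± 0.15, 0.04 ± 0.20, 0.46 ± 0.14 and -0.29 ± 0.16 against Epi. These 8 were picked after their values were seen.

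**Figure D4:**
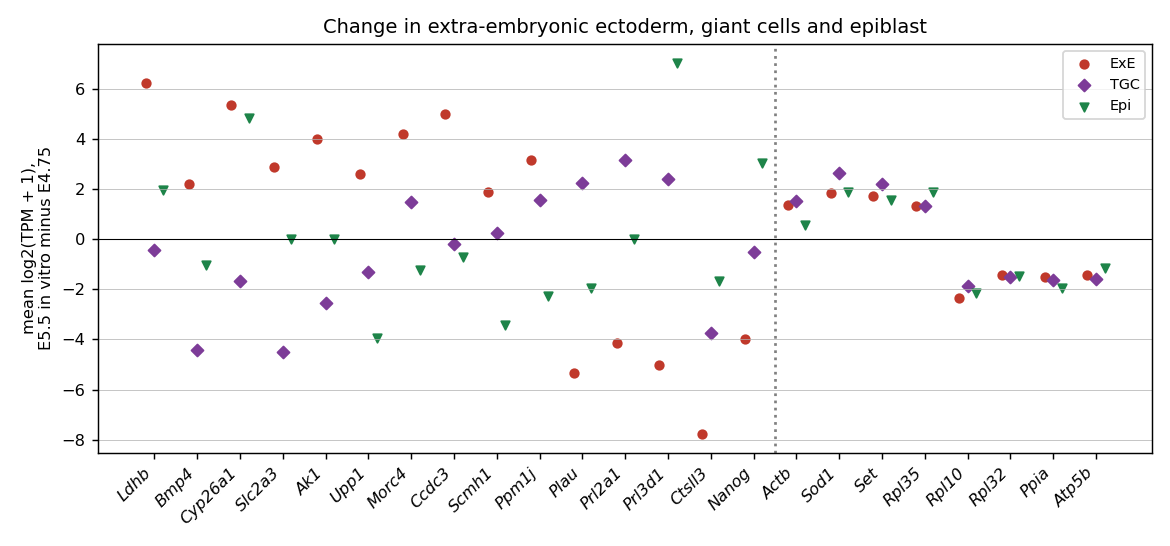
Points give the difference of mean log2(TPM + 1), E5.5 in vitro minus E4.75, in ExE (circles), TGC (diamonds) and Epi (triangles), for genes with the largest differences between tissues on the left of the dotted line and genes with no called difference on the right. Bmp4 rises in ExE and is lower in TGC and Epi, and Prl3d1 is lower in ExE and higher in TGC and Epi. Sod1 is higher and Rpl10 lower in each tissue, with the rise of Sod1 largest in TGC.

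ExE E5.5 in vivo against the same E4.75 libraries gave 3875 calls (24.9%), 1830 (11.8%) higher and 2045 (13.1%) lower, from 2 libraries. With the replicate block there were 2121 calls, 982 higher and 1139 lower. Since both contrasts share the E4.75 libraries, their values are given side by side. Genes of large rise in vitro such as Ldhb, Cyp26a1 and Radx had differences of 5.41 ± 0.77, 3.73 ± 0.36 and 5.59 ± 0.55 in vivo beside 6.22 ± 0.69, 5.35 ± 0.32 and 4.61 ± 0.50 in vitro. Of the ExE factors 5 were higher and 1 lower in vivo, beside 7 and 0 in vitro, and of the trophectoderm genes 1 was higher and 10 lower, beside 2 and 8. Hyou1, an ER chaperone whose call in vitro was lost under 8 of 15 alternatives, without E4.75 replicate 2 (adjusted p = 0.116) or 3 (0.0709) or in vitro replicate 1 (0.0623) or 2 (0.0608) among them, was at 41.3, 41.6 and 38.5 TPM in vitro and 151 and 125 TPM in vivo against 24.9, 14.9 and 17.7 TPM at E4.75, and Hspd1, a mitochondrial chaperone, at 609, 572 and 598, 1402 and 1325 and 841, 745 and 751 TPM. The direct difference between in vitro and in vivo was not tested.

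Calls followed transcript length and the CG content of promoters. Of genes whose longest annotated transcript had 500 to 1000 bases 4.04% were higher and 19.6% lower in ExE E5.5 in vitro, and of those over 8000 bases 25.6% were higher and 2.06% lower. The median difference by length ran from -0.216 to 0.578, and with this trend removed 2784 genes were called, 52.3% of them higher. The median change of genes over 8000 bases was 0.578 in ExE in vitro, 0.277 in ExE in vivo, 0 in TGC and 0.345 in Epi. The part of the trend in the list counts was not tested beyond the counts given with it removed. Among the list genes named above, the calls lost with the trend removed were those of Acvr2a, Aen, Cldn7, Fgfr1, Flt1, Foxa2, Furin, Gata3, Hyou1, Il17rd, Kdm6a, Mcm2, Men1, Nf2, Peg10, Peg3, Polr1a, Setd1b, Slc2a1, Smad1, Smad4, Suz12, Tjp1 and Uhrf1. Median-ratio scaling ended those of Acvr2a, Aen, Aldoa, Apoa1, Crb3, Eno1, Foxa2, Gata3, Hyou1, Il17rd, Kdm6a, Mcm2, Men1, Peg10, Pgk1, Plk1, Slc2a1, Smad1, Smad4, Sox2, Suz12 and Uhrf1, and that of Ubb. Quantile normalization ended those of Actb, Acvr2a, Apoa1, Crb3, Foxa2, Gapdh, Gata4, Hsp90aa1, Hyou1, Il17rd, Kdm6a, Men1, Peg10, Peg3, Polr1a, Smad1, Smad4, Sox2 and Suz12. A pseudocount of 0.1 TPM ended, beside those given above, the calls of Acvr2a, Bmp2, Bmp8a, Bmp8b, Crb3, Ets2, Fgfr4, Gata2, Hand1, Hyou1, Men1, Ocln, Peg10, Smad1, Smad3, Sox2 and Sycp1.

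Promoter windows were matched for 12003 of the 15567 genes tested, taking the window with the most CG pairs where a gene had several. CG pairs are the main sites of DNA methylation in mammals, and are dense in the CpG islands found at many gene starts. Genes that rose held a median of 24 CG pairs per window of 300 bases (n = 1824), those that fell 15 (n = 879), and those not called 20 (n = 9300). A window with 5 or fewer CG pairs was found for 4.82% of risers and 22.5% of fallers, beside 11.4% of all genes. Among transcripts of 2000 to 4000 bases the medians were 22, 17 and 20, so the order was kept within a range of length.

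The promoters of 2 fallers and 2 risers of large difference show the range. Tspan8 (chr10:115817034-115817333, plus strand) held 5 CG pairs and Dppa1 (chr11:46629225-46629524, minus strand) held 1, while Cyp26a1 (chr19:37697558-37697857, plus strand) held 26 and Ldhb (chr6:142507908-142508207, minus strand) held 17. The windows run from 250 bases before to 50 bases after the start, 5′ to 3′ on the gene's strand, in RefSeq's GRCm38.p6 sequence, with each CG in capitals. That start need not be the GENCODE M21 start of the gene. The Tspan8 window lies inside the GENCODE M21 span given above for Tspan8. They were picked after the values were known and support no count above.
Tspan8: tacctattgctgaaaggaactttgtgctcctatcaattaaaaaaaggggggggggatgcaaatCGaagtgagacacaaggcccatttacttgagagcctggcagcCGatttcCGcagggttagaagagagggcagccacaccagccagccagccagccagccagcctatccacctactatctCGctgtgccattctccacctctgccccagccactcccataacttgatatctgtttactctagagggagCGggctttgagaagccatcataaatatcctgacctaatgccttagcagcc
Dppa1: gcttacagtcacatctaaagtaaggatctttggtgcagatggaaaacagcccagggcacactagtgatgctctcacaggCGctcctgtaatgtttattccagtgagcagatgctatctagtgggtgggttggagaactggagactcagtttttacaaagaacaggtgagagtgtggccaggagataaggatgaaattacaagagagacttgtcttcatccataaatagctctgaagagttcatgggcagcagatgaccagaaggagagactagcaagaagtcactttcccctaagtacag
Cyp26a1: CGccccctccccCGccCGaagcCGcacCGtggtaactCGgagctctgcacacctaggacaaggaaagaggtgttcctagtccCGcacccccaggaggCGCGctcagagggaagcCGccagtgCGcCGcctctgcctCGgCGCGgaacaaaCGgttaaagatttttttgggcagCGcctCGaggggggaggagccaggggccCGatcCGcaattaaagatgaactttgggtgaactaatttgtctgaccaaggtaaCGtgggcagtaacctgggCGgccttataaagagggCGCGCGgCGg
Ldhb: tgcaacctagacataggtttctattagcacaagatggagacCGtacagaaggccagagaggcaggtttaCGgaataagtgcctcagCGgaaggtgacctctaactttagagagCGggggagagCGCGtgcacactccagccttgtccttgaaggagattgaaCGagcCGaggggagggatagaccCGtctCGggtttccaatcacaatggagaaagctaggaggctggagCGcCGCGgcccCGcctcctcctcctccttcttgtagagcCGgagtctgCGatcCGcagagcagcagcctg
The Tspan8 and Dppa1 windows belong to genes at or near 0 TPM in ExE E5.5 in vitro, and those of Cyp26a1 and Ldhb to genes at 811 ± 45.7 and 289.8 ± 19.6 TPM there, against 18.96 ± 2.25 and 2.95 ± 0.751 TPM in ExE E4.75.

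**Figure D5:**
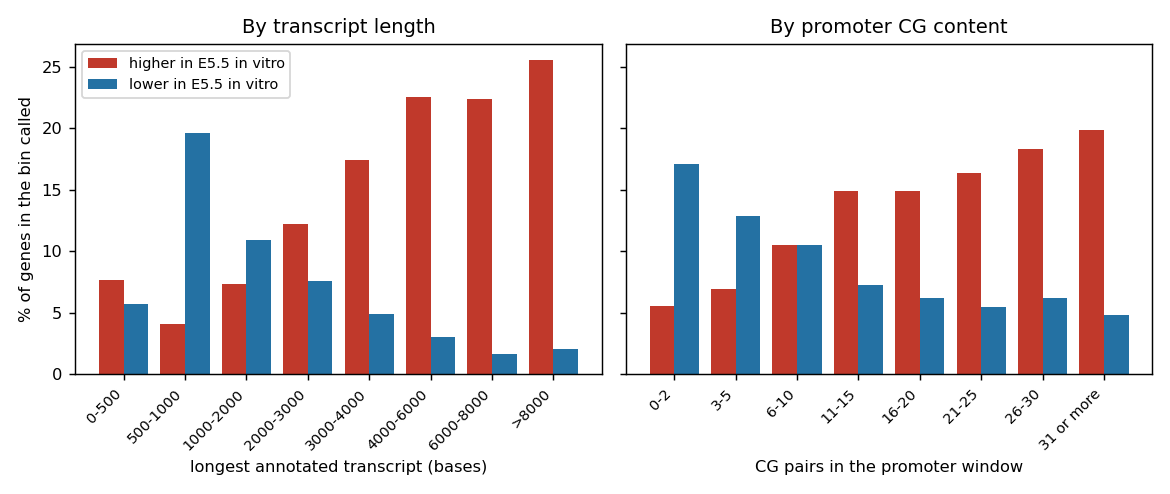
Bars give the percentage of genes called higher or lower in ExE E5.5 in vitro against ExE E4.75, by length of the longest annotated transcript in bases (left) and by CG pairs in the promoter window (right). Calls in the higher direction climb to 25.6% over 8000 bases and 19.9% at 31 or more CG pairs, and calls in the lower direction are most frequent at 500 to 1000 bases and at 0 to 2 CG pairs.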

How the data were processed

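RNA was measured by Smart-seq2 in small pools of cells, per the series' design text. The authors' deposited table gives TPM for 25006 genes in 67 libraries of 23 groups. HISAT2 2.2.1, StringTie 2.2.1, Cufflinks and the mm10 build are named in the submitters' processing notes. Their roles, the gene annotation and the strand setting are not given in the sources used here, so overlapping and near-identical genes are uncertain. TPM keeps no depth, so the reads behind a value are unknown and no counting interval is given. An exact 0 can be a failed estimate, so such genes are described as listed at 0.

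Group means of log2(TPM + 1) over all 67 libraries were fitted in R 4.3.3 by limma 3.58.1, with a trended empirical Bayes prior and Benjamini-Hochberg adjustment over the 15567 genes kept. Adjusted p-values are from this fit, except those given with an alternative setting or a library left out, which come from a refit under that setting. Tables and figures were made with python 3.11.15. On simulated data (15567 genes, 100 changed by 1.5 log2 and 100 by 3), 75% and 98% were recovered in the comparison of ExE E5.5 in vitro with ExE E4.75, and 4.42% of calls were false. For ExE E5.5 in vivo against E4.75 these values were 68%, 99% and 8.24%. For the difference from TGC they were 59%, 92% and 7.36%, and for that from Epi 55%, 94% and 11.3%. Changes were planted only in genes above a minimum level, so the recovery does not cover low genes. The simulated noise was normal and independent, with the same SD for a gene in all groups. The rates therefore do not cover unequal spread between groups or replicates that are technical.

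The comparison and the 37 gene lists (601 symbols, 596 in the table, 566 tested) were chosen with earlier results of these data known. Named genes were Bmp4, Elf5 and Eomes, of each list up to 4 called members in either direction and up to 2 uncalled members of highest TPM, the 15 genes per direction of largest log2 difference without overlap of libraries and with a group mean of at least 5 TPM, the 10 of largest TPM difference, and up to 5 per direction of largest difference from TGC and from Epi. Predicted genes, Xist and Y-linked genes were left out of the top genes, and some genes that the rule names are not reported here. Positions and lengths are from GENCODE M21, matched for 268 of 271 named genes. Each of these was tried in turn: quantile normalization, a pseudocount of 0.1 TPM, scaling by median ratios, array weights, no filter on low values, only the libraries compared, a replicate block, no minimum difference, leaving out each library and, added after seeing the data, removal of the length trend.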

Additional observations from a re-analysis of the deposited data

Results flagged for a closer look

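The results here are differences between tissues in the change between E4.75 and E5.5 in vitro, each tested as a difference of differences in limma, with values in log2(TPM + 1) ± SE, and none was weighed for a cause. Between ExE and TGC 3085 genes differed, and between ExE and Epi 1562. Positive values mean a more positive change in ExE.

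Against TGC the largest positive differences among genes that rose in ExE were 7.38 ± 0.40 for Slc2a3, 7.01 ± 0.44 for Cyp26a1, 6.64 ± 0.94 for Ldhb, 6.64 ± 0.84 for Bmp4 and 6.55 ± 0.69 for Ak1, an adenylate kinase, with adjusted p-values from 5.57e-21 (Slc2a3) to 1.71e-07 (Ldhb). The largest negative ones among genes that fell were -7.54 ± 0.44 for Plau, -7.42 ± 1.16 for Prl3d1, -7.28 ± 0.34 for Prl2a1, -7.25 ± 0.76 for Prl3d3 and -7.07 ± 0.77 for Prl3d2. Prl3d1 averaged 45.6 ± 10.2 TPM in ExE E5.5 in vitro and 1501 ± 98.4 TPM in ExE E4.75 (SD, n = 3 each), and 109216 ± 6850.5 TPM (n = 4) and 20926 ± 2031 TPM (n = 3) in TGC.

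Against Epi the largest positive differences were 6.52 ± 0.75 for Upp1, 5.74 ± 0.45 for Ccdc3, 5.44 ± 0.91 for Ppm1j, 5.40 ± 0.56 for Morc4 and 5.33 ± 0.71 for Scmh1. The largest negative ones were -12.08 ± 1.20 for Prl3d1, -10.06 ± 0.79 for Prl3d2, -9.63 ± 0.79 for Prl3d3, -7.05 ± 0.61 for Nanog and -6.09 ± 0.26 for Ctsll3. Nanog was at 0.0754 ± 0.0678 TPM in ExE E5.5 in vitro and 16.2 ± 1.34 TPM in ExE E4.75, and at 65.5 ± 6.23 and 7.22 ± 2.58 TPM in Epi. The 3 Prl3d genes were listed at 0 in Epi E4.75, and their reads cannot be assigned with certainty among the copies.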

How the results depend on the processing

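The count of calls between ExE E5.5 in vitro and ExE E4.75, 3396, stayed within 1.5 times under every alternative run, from 2784 with the length trend removed to 4700 with no minimum difference, and from 2982 to 3303 when a library was left out. The genes called were less stable than their count. Of the reported calls 70.4% were kept after quantile normalization, 71.9% after median-ratio scaling and 66.8% with the length trend removed. For ExE E5.5 in vivo against E4.75 the 3875 calls became 2121 with the replicate block, and were 3336 to 3488 with a library left out. Array weights gave 4842 in place of 3085 calls against TGC and 2451 in place of 1562 against Epi, with 2644 to 2961 and 1270 to 1533 when a library was left out. Against TGC 56.7% of the reported calls were kept after quantile normalization, 54.7% after median-ratio scaling and 57.3% with the length trend removed. Against Epi these shares were 70.9%, 72.3% and 77.5%. Causes were not tested. Same-numbered libraries did not deviate together (r = -0.0239, -0.00982 and 0.00724), which cannot show whether they were collected together. The replicate block gave 3828 calls in the first comparison. No named gene changed sign with a call, and 186 of 271 kept their call status under all 15 alternatives. Calls were lost for Hyou1 under 8, for Acvr2a, Gata3, Nid1 and Slc7a5 under 7 and for Atf3, Crb3 and Flna under 6. At a pseudocount of 0.1 TPM 3 endoderm genes were higher and 0 lower in place of 6 and 3. With no minimum difference 10 DNA replication genes were higher in place of 2, beside 3060 of all genes in place of 2311. TPM leaves depth unknown, so how far low genes are limited by counting cannot be given.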
